A study of Mus musculus with 4 samples.

Results

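The cells described here are dividing granule progenitor-like cells of 4 mouse medulloblastomas of the Sonic hedgehog (SHH) subgroup, taken in the G2 and mitotic phases of the cell cycle. A cell was included when at least 1 UMI, a molecule counted once through its tag, of Atoh1 was present, at least 6 of 10 G2/M genes were detected (Ccnb1, Cdc20, Ube2c, Plk1, Cenpe, Cenpf, Cenpa, Hmmr, Kif23 and Prc1), at most 3 of 5 neuronal genes were detected (Cntn2, Neurod1, Stmn2, Pnoc and Rab3a) and Ptprc, the pan-leukocyte gene CD45, was not. These measured values chose 921 of 6509 cells, or 14.1%. The tumours were untreated end-point medulloblastomas of Ptch1+/- mice irradiated at birth, and all 4 formed 1 group, so no treated or wild-type tissue was set against them. The Ptch1+/- genotype of the mice and the irradiation at birth were shared by all cells compared. Each tumour gave 1 library of the 10x Genomics platform from live cells that had been frozen, thawed and sorted on a dead-cell dye. Comparisons were made within tumours, between the G2/M progenitor-like cells and 3 other classes of cells picked by the same genes, and among the G2/M cells themselves.

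Granule neuron progenitors divide in the outer layer of the young cerebellum under SHH signalling, and Atoh1 is the basic helix-loop-helix transcription factor that marks and maintains them. Ptch1 encodes the receptor that holds this pathway off. Cells that pass from S phase into G2 and mitosis accumulate cyclin B and its kinase, assemble kinetochores and a spindle, and then destroy cyclin B through the anaphase-promoting complex, for which Cdc20 is an activator and Ube2c an E2 enzyme. Many genes of this programme are transcribed late in the cycle, and their promoters are known for CCAAT boxes, bound by the factor NF-Y, and for the cell cycle genes homology region (CHR), bound by the DREAM and MuvB complexes.

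Promoters of 4 such genes are shown because they span the range of these letters: Cdc20, a gene of the rule that holds both motifs, Hmmr, a gene of the rule with CCAAT boxes only, and Cdk1 and Top2a, genes of G2 outside the rule with several copies of both. Capitals mark CCAAT boxes (CCAAT, printed as ATTGG where the box lies on the opposite strand). They also mark the CHR core, which is TTTGAA on its own strand and reads as TTCAAA from the other. A palindromic variant of that core, TTCGAA, was searched as well. The sequences are RefSeq's for GRCm38.p6, on the gene's own strand, 5′ to 3′, and end before the annotated gene. At most 150 of the 250 bases searched are printed, so some of the motifs counted below lie outside the printed stretches.
Cdc20 promoter, chr4:118437353-118437493, minus strand: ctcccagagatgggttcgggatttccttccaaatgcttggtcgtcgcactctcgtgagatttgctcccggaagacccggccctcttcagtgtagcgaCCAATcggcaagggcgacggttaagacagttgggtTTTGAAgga
Hmmr promoter, chr11:40733438-40733587, minus strand: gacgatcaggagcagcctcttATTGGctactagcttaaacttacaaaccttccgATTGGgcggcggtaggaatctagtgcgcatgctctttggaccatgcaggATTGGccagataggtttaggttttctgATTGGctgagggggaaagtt
Cdk1 promoter, chr10:69352939-69353062, minus strand: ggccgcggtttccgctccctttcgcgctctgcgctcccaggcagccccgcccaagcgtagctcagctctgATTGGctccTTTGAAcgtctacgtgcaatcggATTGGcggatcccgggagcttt
Top2a promoter, chr11:99024190-99024339, minus strand: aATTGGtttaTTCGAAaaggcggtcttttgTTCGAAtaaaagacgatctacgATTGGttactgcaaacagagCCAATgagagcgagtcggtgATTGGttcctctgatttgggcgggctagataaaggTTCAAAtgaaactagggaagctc

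In Cdc20 the CHR core began 18 bases before the RefSeq start, with a CCAAT box at 53 bases. Hmmr had 5 CCAAT boxes in the 250 bases searched before its start and no CHR core. Cdk1 had a CHR core at 71 bases flanked by ATTGG at 80 and 48 bases, and Top2a had 4 CHR cores and 6 CCAAT boxes. Both strands were searched. Every one of the 11 RefSeq starts of the 10 G2/M genes of the rule held a CCAAT box (100%), and 3 held a CHR core (27.3%), against 33.8% and 17.1% of all 32851 promoters of the table. Over 91 starts of 82 of the 102 genes of 7 lists of mitotic genes outside the rule, 62.6% held a CCAAT box, 40.7% a CHR core and 31.9% both. Both motifs were found in 6.02% of all promoters. Over 31 starts of the replication list the shares were 51.6% for CCAAT and 19.4% for the CHR core. The 9 starts of 8 of the S-phase genes of the class held a CCAAT box in 77.8% and a CHR core in 11.1% of cases, so CCAAT boxes were also common outside the G2/M genes. These matches describe letters in the reference and show no binding.

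Tumours 1 to 4 gave 798, 2589, 1229 and 1893 cells and between 10458431 and 23439893 UMIs a library. The median cell had 15283 UMIs in tumour 1 and between 6799 and 7825 in the others. Libraries shared 17 cell barcodes in all, and none was that of a G2/M progenitor-like cell. Tumour 4 stood apart in its make-up. Ptprc was detected in 132, 106, 12 and 1172 cells of tumours 1 to 4. Atoh1 was found in 48.5%, 17.0%, 41.7% and 12.4% of these Ptprc-detected cells, which should lack it, against 70.1%, 65.0%, 74.8% and 23.5% of all cells, so detection of Atoh1 alone does not set progenitors apart. The median depths of the Ptprc-detected cells were 14221, 6270, 8381 and 7772 UMIs. Ptch1 was nearly undetected in the G2/M cells, at 0.573, 0.318, 0.331 and 1.88 CPM (UMIs scaled to a common total), and the label does not give the deleted part, so this checks no genotype.

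G2/M progenitor-like cells numbered 148, 474, 232 and 67 in tumours 1 to 4. They made up 18.5% (95% Wilson interval 16.0% to 21.4%), 18.3% (16.9% to 19.8%), 18.9% (16.8% to 21.2%) and 3.54% (2.80% to 4.47%) of the cells. Tumour 4 thus lay far below the other 3, whose intervals overlapped. Among the 2825 cells that met the Atoh1, Ptprc and neuronal criteria the shares were closer, at 41.6% (36.6% to 46.8%), 32.6% (30.2% to 35.0%), 30.1% (27.0% to 33.5%) and 27.5% (22.2% to 33.4%), or 32.9% ± 6.13 (SD, n = 4). Tumour 1, the most deeply read library, was highest. The rule asks for detected genes, and the cells it chose were deep: their median UMIs were 19901, 11763, 11057 and 13149, against 13949, 8321, 7333 and 9804 in S-phase progenitor-like cells and 9483, 6105, 5048 and 6846 in non-cycling progenitor-like cells. With every cell thinned to 6000 UMIs before the rule was applied, 83, 275, 140 and 43 cells were chosen. These were 10.4%, 14.7%, 19.4% and 3.70% of the cells deep enough, so tumour 4 remained lowest. The cells deep enough numbered 798, 1868, 722 and 1163, and 148, 459, 210 and 63 of them were chosen without thinning. The thinned shares are thus not over the same cells as the shares of all cells. Cells with the same G2/M genes and at least 4 neuronal genes, which the rule leaves out, numbered 102, 73, 56 and 21.

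**Figure D1:**
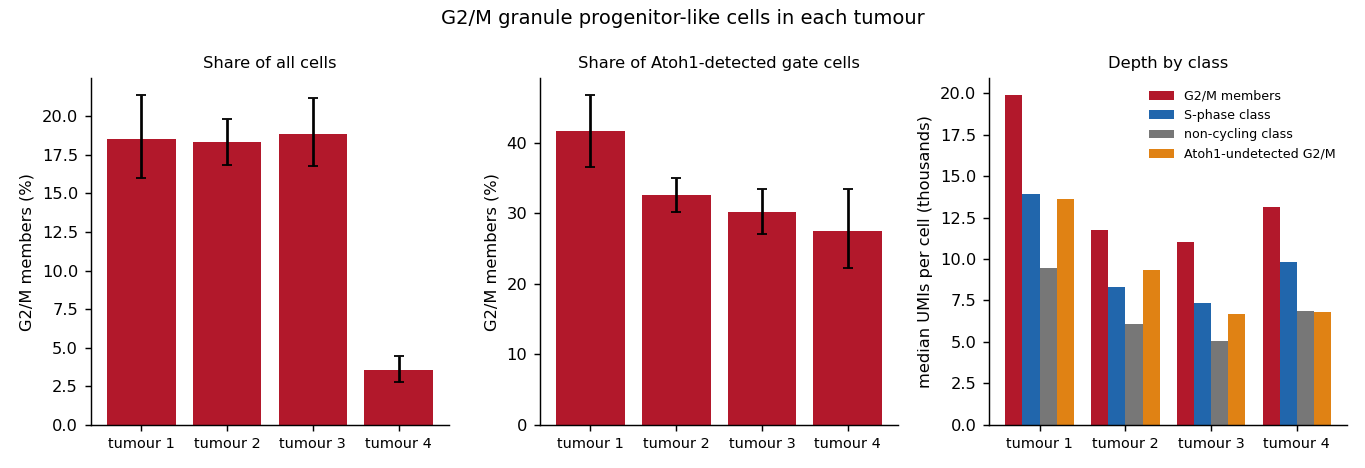
Percent of cells that were G2/M progenitor-like per tumour, over all cells and over cells that met the Atoh1, Ptprc and neuronal criteria, with 95% Wilson intervals, and the median UMIs per cell by class. Tumour 4 is low over all cells (3.54%) and near the others over cells that met the criteria (27.5%), and G2/M progenitor-like cells are deeper than S-phase and non-cycling progenitor-like cells in each tumour.

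The genes of the rule show what was chosen, and their levels in these cells are a description with no test. The B-type cyclin Ccnb1 (chromosome 13, 100778650 to 100786570, GRCm38, minus strand) stood at 326, 549, 443 and 329 CPM in the G2/M cells of tumours 1 to 4. The mean was 412 ± 107 CPM (SD, n = 4), against 24.8 CPM in S-phase and 7.87 CPM in non-cycling progenitor-like cells. Below, each value after ± is the SD over the 4 tumours for a level in CPM. Cdc20 (chromosome 4, 118432901 to 118437352, minus strand) stood at 288, 435, 333 and 368 CPM, and Ube2c (chromosome 2, 164769898 to 164778822, plus strand) at 546, 907, 577 and 786 CPM. Ube2c was the highest of the 10 genes in every tumour, and it was detected in 98.2% of the cells on average. Plk1 (chromosome 7, 122159439 to 122169873, plus strand), the Polo kinase of mitotic entry, stood at 116, 195, 146 and 128 CPM.

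The kinetochore motor Cenpe averaged 187 ± 31.6 CPM and the large kinetochore protein Cenpf 344 ± 67.1 CPM in the G2/M cells. Cenpa, the histone H3 variant of centromeres, averaged 393 ± 52.7 CPM. The spindle protein Hmmr averaged 118 ± 28.9 CPM, the midzone motor Kif23 96.2 ± 23.1 CPM and the midzone bundling protein Prc1 191 ± 53.1 CPM. Kif23 and Hmmr were the least often seen, in 64.6% and 67.0% of the cells. Tumour 1 was lowest of the 4 for 8 of the 10 genes, and all 10 genes together were found in 61, 168, 56 and 17 cells. Of the neuronal genes the rule limits, Stmn2 stood at 117, 369.8, 366 and 261 CPM and Neurod1 at 134, 279.9, 289 and 116 CPM in the G2/M cells, while Cntn2 averaged 4.72 and Pnoc 0.648 CPM. Neurod1 and Stmn2 were thus far above Cntn2 and Pnoc. Of the G2/M cells, 37 had none of the 5 genes, 131 had 1, 348 had 2 and 405 had 3.

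**Figure D2:**
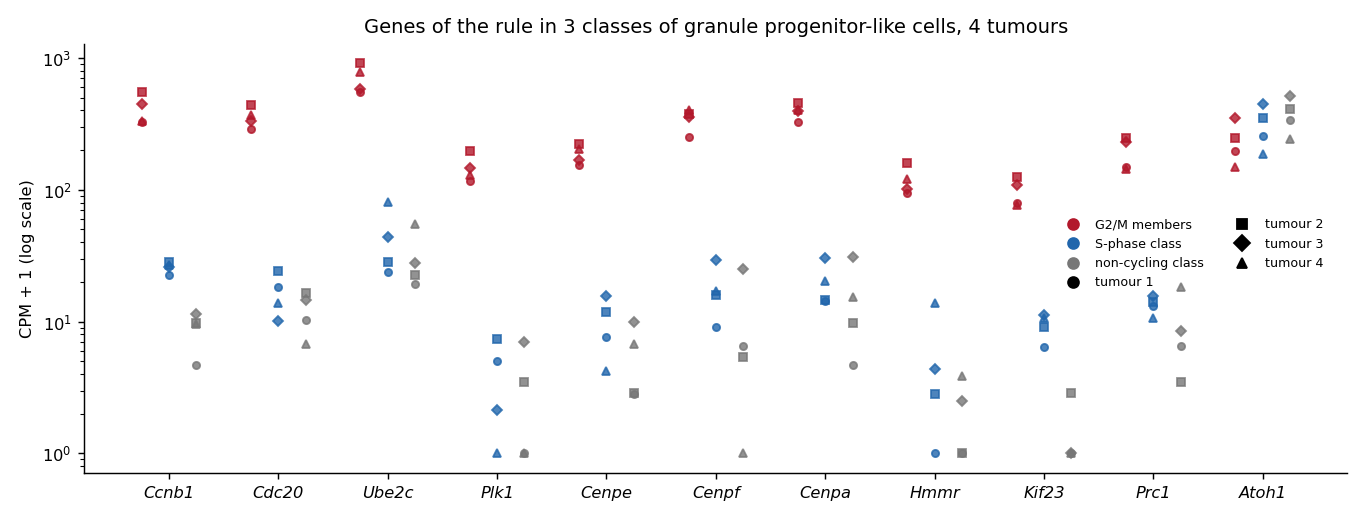
CPM + 1 (log axis) of the 10 G2/M genes of the rule and Atoh1 in G2/M, S-phase and non-cycling progenitor-like cells, 1 point per tumour. The G2/M genes separate the classes as the rule demands (Ccnb1 averaged 412, 24.8 and 7.87 CPM), and Atoh1 averaged 234, 309 and 375 CPM.

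The markers Atoh1, Ccnb1, Cdc20, Plk1 and Ube2c all belong to the rule, so only genes outside it can check the name of the cells. Genes of the granule lineage were present. Whether they set progenitors apart from other cells of that lineage was not tested. Neurod1 and Stmn2 were detected in 81.3% and 81.6% of the G2/M cells on average. Barhl1, a homeobox gene of the granule lineage, stood at 317, 341, 397 and 203 CPM in the G2/M cells and at 272, 116, 166 and 63.3 CPM in Ptprc-detected cells of tumours 1 to 4. Zic1, a zinc-finger gene of granule progenitors, stood at 296, 397, 490.4 and 277 CPM, against 252, 149, 176 and 98.1 CPM. Pax6, a paired-box gene of the same lineage, stood at 206, 239, 298 and 144 CPM, against 169, 72.1, 108 and 39.9 CPM. All 3 were higher in the G2/M cells of every tumour, and the gap was smallest in tumour 1. Of the Ptprc-detected cells, 55, 11, 2 and 66 themselves had at least 6 G2/M genes. In cells with the same G2/M genes but no UMI of Atoh1, Zic1 and Pax6 averaged 338 and 217 CPM. Their means in the G2/M cells were 365 and 222 CPM. Markers of other cell types were not at 0 in the G2/M cells. The 12 microglia and macrophage markers summed to between 22.2 and 693 CPM, against 5393 to 27776 CPM in Ptprc-detected cells. The 6 neutrophil markers summed to between 7.28 and 710 CPM, with the highest sum in tumour 4. The 11 astrocyte markers summed to 409, 242, 471 and 938 CPM, against 397, 112, 313 and 307 CPM in Ptprc-detected cells of tumours 1 to 4. The 10 markers of the oligodendrocyte lineage summed to 199, 96.3, 214 and 407 CPM, with Mog and Mag at 0, against 215, 117, 117 and 218 CPM. Astrocyte sums were thus higher in the G2/M cells of each tumour, and oligodendrocyte lineage sums in tumours 3 and 4, so these 2 lists were not low beside that class. Vascular markers summed to 13.0 to 41.3 CPM with Cldn5, Flt1 and Pdgfrb at 0, and lymphoid markers to 0.636 to 15.0 CPM with Trac and Gzmb at 0. Their part in the levels below was not tested beyond the comparison without immune marker-rich cells.

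Atoh1 (chromosome 6, 64729125 to 64731245, plus strand) was the gene by which progenitors were picked, so its level is described without a test. It stood at 195, 245, 349 and 149 CPM in G2/M, 253, 347, 449.9 and 187 CPM in S-phase and 337, 407, 518 and 240.2 CPM in non-cycling progenitor-like cells of tumours 1 to 4. Each tumour gave the same order, with G2/M cells lowest. G2/M cells were also the deepest of these 3 classes. Leaving out the Atoh1 criterion also changed which cells were in each class. The non-cycling class then held 107, 441, 194 and 244 cells, against 48, 255, 127 and 48 with the criterion. The part of the criterion in the order was thus not tested. Without the Atoh1 criterion the order was no longer shared: the level was 169, 204, 322 and 105 CPM in G2/M cells, 225, 293, 384 and 133 CPM in S-phase cells and 146, 252, 359.6 and 47.5 CPM in non-cycling cells. Atoh1 was then detected in 81.3%, 78.9%, 85.0% and 56.3% of G2/M cells, 83.9%, 81.8%, 82.2% and 62.2% of S-phase cells and 44.9%, 57.8%, 65.5% and 19.7% of non-cycling cells, whose median depths were 17844, 11140, 10057 and 9838, 12946, 8208, 7045 and 8461, and 10477, 5739, 4645 and 5757 UMIs. G2/M cells lay below S-phase cells in CPM in all 4 tumours either way. Atoh1 UMIs per Atoh1-detected cell were instead highest in G2/M cells of each tumour, at 4.59, 3.25, 4.55 and 2.37. They were 4.02, 3.05, 3.59 and 2.07 in S-phase and 3.81, 2.56, 2.72 and 1.75 in non-cycling cells. These counts are not scaled for depth, and the G2/M cells were the deepest.

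Mitotic genes outside the rule belong to the same programme as the genes that chose the cells, so the genes of these lists are given as levels with no test in the comparisons with S-phase and non-cycling cells. All 14 genes of mitotic entry, 19 of the checkpoint and kinetochore, 6 of the chromosomal passenger complex and shugoshins, 24 of spindle motors and associated proteins, 12 of chromosome compaction and 8 of cytokinesis were higher in G2/M than in non-cycling cells in all 4 tumours. The cyclin-dependent kinase Cdk1 averaged 310.2 ± 104 CPM in G2/M, 76.0 ± 17.5 CPM in S-phase and 20.4 ± 10.9 CPM in non-cycling cells. Cyclin A, Ccna2, averaged 309 ± 70.8, 56.6 ± 6.56 and 14.8 ± 8.49 CPM in the same order. Birc5, the survivin subunit of the passenger complex, averaged 359 ± 40.5, 84.7 ± 26.2 and 27.6 ± 16.3 CPM. These genes were thus several-fold higher in G2/M than in S-phase cells, and lower still in the class named non-cycling. That name rests on few detected genes in the shallowest cells, and whether all these cells were outside the cycle was not tested. Mki67, a proliferation marker of the compaction list, averaged 221, 45.8 and 26.6 CPM in the same order. In tumour 3 it stood at 63.1 CPM in S-phase and 70.6 CPM in non-cycling cells.

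In the spindle list, Arl6ip1 had the highest level in the G2/M cells, at 683 ± 119 CPM. It was at 169 CPM in S-phase and 188 CPM in non-cycling cells, and it is not a spindle motor. Racgap1 was next in the list, at 270 ± 64.9, 80.1 and 48.7 CPM in the same order. Tpx2, which activates Aurora A on the spindle, averaged 209 ± 51.4, 23.8 and 11.1 CPM in G2/M, S-phase and non-cycling cells. Hmgb2, a chromatin protein, was the most abundant gene of the compaction list, at 2692 ± 446, 885 and 313 CPM. Top2a, the topoisomerase that untangles sister chromatids, averaged 463 ± 160.1, 117 and 15.8 CPM. Of the anaphase-promoting complex list, 13 of 14 genes had a higher mean log2 level in G2/M than in non-cycling cells, 12 of them in all 4 tumours, with a smaller median difference (0.69 on the log2 scale, against 2.06 for mitotic entry). Ube2s, an E2 enzyme, averaged 567, 199.6 and 157 CPM, and the subunit Anapc5 averaged 267, 243 and 211 CPM. Foxm1, a transcription factor of late cell cycle genes, was at 35.0 ± 9.92, 12.2 ± 7.16 and 2.58 ± 2.11 CPM.

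Replication genes were higher in G2/M than in non-cycling cells as well. Ribonucleotide reductase Rrm2 averaged 286 ± 116 CPM in G2/M, 236 ± 66.7 CPM in S-phase and 16.9 CPM in non-cycling cells, although it was among the 10 genes that chose the S-phase class. The helicase subunit Mcm6, another of those genes, averaged 231 ± 68.2, 445 ± 148 and 118 ± 40.3 CPM. The mean of Rrm2 was thus not lower in G2/M than in S-phase cells, while Mcm6 lay between the other classes. Of 32 replication genes outside the rules, all were higher in G2/M than in non-cycling cells in all 4 tumours and 28 had a lower mean log2 level in G2/M than in S-phase cells, with a median difference of -0.28.

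The threshold of 6 genes cuts a continuous range. Cells that met the other criteria were grouped by the number of G2/M genes detected, from 0 or 1 through 2 or 3, 4 or 5 and 6 or 7 to between 8 and 10. The summed level of the 10 genes averaged 85.3, 334, 689, 1213 and 3610.0 CPM in these groups. It averaged 783 CPM in the 164 cells with exactly 5 genes, just outside, and 1004 CPM in the 139 cells with exactly 6, just inside. Mcm6 averaged 266, 310.4, 343, 299.8 and 204 CPM over the 5 groups, highest in the middle one. Top2a averaged 47.0, 106, 212, 283 and 533 CPM and the tubulin Tubb4b 192, 234, 283, 322 and 624 CPM, with the highest level in the last group. Barhl1 averaged 488, 429, 409, 340.5 and 304 CPM and the Notch-associated repressor Hey1 308, 288, 245, 215 and 169 CPM, with the lowest level in the last group. Gli1, the transcriptional effector and target of SHH signalling, stayed between 47.9 and 57.6 CPM across the groups. Depth differed along the same groups, with medians of 5606 to 10179 UMIs in the first and 11986 to 20165 UMIs in the last.

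**Figure D3:**
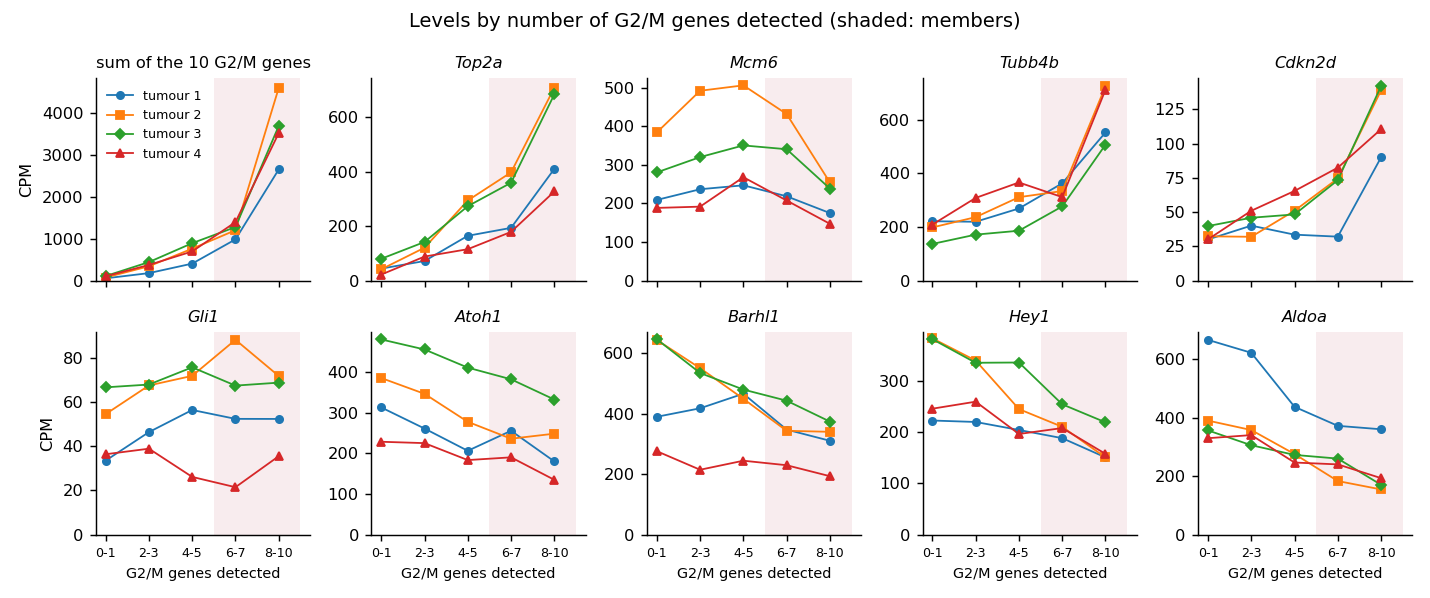
Level in CPM of genes by the number of G2/M genes detected, in cells that met the Atoh1, Ptprc and neuronal criteria, 1 line per tumour, with the groups of the rule shaded. Tubb4b is highest in cells with 8 to 10 genes (mean 624 CPM), Mcm6 peaks at 4 or 5 genes (343 CPM) and Hey1 is lowest at 8 to 10 (169 CPM).

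Set against non-cycling progenitor-like cells, in which at most 1 G2/M and 2 S-phase genes were detected (48, 255, 127 and 48 cells), the G2/M cells differed in genes of several groups. All genes that were called in the nuclear envelope, histone, tubulin, cohesin and DNA repair lists were higher. All that were called in the granule lineage and neuronal lists were lower. Both classes were held to the same number of detected neuronal genes and the G2/M cells were deeper. This choice can favour lower neuronal levels in them. Gli1 did not pass the test, but did with the mean deposited log2 value and without tumour 4. Of 10216 genes tested with limma on log2(CPM + 10), tumour by tumour, 999 were higher in G2/M cells (9.78% of genes) and 711 were lower (6.96%) at an adjusted p of 0.05. The median over all genes was -0.01. A value after ± is the SE for a difference on the log2(CPM + 10) scale, which understates changes of low genes. The count of lower genes fell to 327 in cells thinned to 6000 UMIs, and with the mean deposited log2 value in place of summed UMIs 1150 were higher and 112 lower. It was 406 without tumour 2 and 450 without tumour 3.

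Of 32 measured genes of the nuclear envelope and nuclear transport, 20 were higher in G2/M cells and none lower (median 0.65). Lamin B1, Lmnb1, stood at 370.1, 532, 498 and 498 CPM in G2/M cells of tumours 1 to 4, against 97.7, 139, 174 and 82.9 CPM in non-cycling cells. The values did not overlap, and the difference was 1.90 ± 0.13 (limma adjusted p = 2.3e-07). Rangap1, the GTPase activator of Ran, stood at 136, 208, 138 and 161 CPM, against 35.0, 41.0, 27.0 and 34.3 CPM in non-cycling cells (difference 1.94 ± 0.12). The lamina-associated Tmpo averaged 506 ± 138 CPM, against 162 ± 54.6 CPM. All 3 were higher in each tumour.

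Of 17 measured histone genes, 15 were higher (median 0.94). They were led by Hist1h2ap, at 2916, 1099.7, 1014 and 917 CPM in G2/M cells against 112, 55.9, 61.5 and 114 CPM in non-cycling cells. Tumour 1 stood far above the others, and the call was lost without tumour 2 or without tumour 3, at differences of 3.77 and 3.85. The linker histone Hist1h1b averaged 70.6 ± 28.0 CPM, against 4.93 ± 1.64 CPM. Replication-dependent histones lack a poly(A) tail for the most part and have near-identical copies, so their counts are uncertain. H2afx, the variant phosphorylated at DNA breaks, has a polyadenylated form, and averaged 414 ± 83.4 CPM, against 78.5 ± 7.77 CPM, given without a test as a gene of the compaction list.

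Of 14 tubulin genes and stathmins, 7 were higher and none lower (median 0.45). Tubb4b, a β-tubulin, stood at 516, 618, 427 and 608 CPM in G2/M cells, against 239.5, 177, 126 and 206 CPM in non-cycling cells. The ranges were far apart (difference 1.51 ± 0.10, limma adjusted p = 6.7e-09). The α-tubulins Tuba1b and Tuba1c differed by 1.62 ± 0.05 and 1.59 ± 0.27, though their copies are close in sequence, and Tuba1c lost its call with the mean deposited log2 value. Of 12 cohesin genes, 6 were higher (median 0.42), among them Rad21, the subunit cleaved at anaphase (199 ± 29.1 CPM, against 70.8 ± 13.9 CPM), and Esco2, which acetylates cohesin (82.6 ± 28.9 CPM, against 5.04 ± 3.61 CPM). Of 28 DNA repair genes, 21 were higher (median 0.88), a count that takes in H2afx of the compaction list, and of 37 splicing genes 22 were (median 0.28), such as Srsf7 and Hnrnpd, at differences of 0.70 ± 0.07 and 0.80 ± 0.09.

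Among chromatin regulators, 12 of 31 were higher and 2 lower. Dnmt1, the maintenance DNA methyltransferase, averaged 71.6 ± 16.4 CPM in G2/M cells, against 20.7 ± 12.8 CPM in non-cycling cells. Ezh2, the Polycomb methyltransferase, averaged 254 ± 52.2 CPM, against 109.7 ± 31.9 CPM. The H3K4 demethylase Kdm5b moved the other way, at 36.7 ± 11.9 CPM, against 77.6 ± 13.8 CPM (difference -0.93 ± 0.14).

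Cell cycle inhibitors differed among themselves. Cdkn2d, the INK4 inhibitor p19, stood at 78.5, 121, 118 and 103 CPM in G2/M cells, against 22.1, 34.2, 39.0 and 28.6 CPM in non-cycling cells. It was higher in every tumour, with a difference of 1.49 ± 0.13 (limma adjusted p = 5.2e-08), and so was its relative Cdkn2c (1.05 ± 0.15). Cdkn1a and Cdkn1b, p21 and p27, did not pass the test, at -0.03 and -0.04, and both changed sign between alternatives. Btg2, an antiproliferative gene, stood at 82.0, 111, 70.1 and 118 CPM, against 144, 265, 129 and 277 CPM in non-cycling cells, and was lower in all 4 tumours (difference -0.97 ± 0.11). Of the 12 genes of the cell cycle exit list, 3 were higher and 4 lower, with a median of -0.09. The third higher gene was Insm1, a zinc-finger factor of neural progenitors (0.70 ± 0.13), whose call was lost in thinned cells.

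Of 13 genes of the SHH pathway, 3 were higher and 1 lower in G2/M cells, with a median of 0.08. Gas1, a co-receptor for SHH, differed by 0.86 ± 0.14, and Hhip, a membrane protein that binds SHH and is a target of the pathway, by 0.76 ± 0.16, a call lost with the rule applied after thinning. Gli2, the main activator among the Gli factors, stood at 24.9, 23.0, 21.5 and 26.3 CPM, against 14.7, 9.95, 15.0 and 17.2 CPM, with a difference of 0.49 ± 0.16 at an adjusted p of 0.039. Its call was lost in 10 of the 14 alternatives that kept the block by tumour, with 0.25 in thinned cells and 0.14 with the rule applied after thinning. Gli1 stood at 52.5, 76.4, 68.5 and 31.9 CPM, against 33.2, 56.6, 39.0 and 37.2 CPM, and did not pass at 0.35 ± 0.15 (limma adjusted p = 0.12). It passed with the mean deposited log2 value, at 0.21 (adjusted p = 0.034), and without tumour 4, at 0.53. Mycn, the Myc factor downstream of SHH, stood at 279.5, 399, 519.9 and 118 CPM, against 280.1, 518, 648 and 189 CPM, and was lower at -0.33 ± 0.09 (adjusted p = 0.018), a call lost in thinned cells (-0.26), with the mean deposited log2 value (-0.11), with the rule applied after thinning (-0.29) and without tumour 2, 3 or 4. Ccnd1, the D-type cyclin that SHH induces in these progenitors, averaged 539 ± 128 CPM, against 381 ± 66.4 CPM (difference 0.47 ± 0.08), and its call too was lost in thinned cells and with the rule applied after thinning. Ccnd2 did not pass, at 0.11 ± 0.23. The median difference of the SHH list, 0.08, was smaller than those of the nuclear envelope and tubulin lists, 0.65 and 0.45.

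The granule lineage list held no gene that was higher and 6 of 15 that were lower (median -0.25). Barhl1 stood at 317, 341, 397 and 203 CPM in G2/M cells, against 394, 729.7, 729.6 and 323 CPM in non-cycling cells, lower in all 4 tumours (difference -0.72 ± 0.10, limma adjusted p = 0.00016). Hes6, a factor that promotes neuronal differentiation, stood at 217, 103, 89.6 and 94.7 CPM, against 341, 162, 132 and 129 CPM (difference -0.54 ± 0.10). Its call was lost with the mean deposited log2 value and with the rule applied after thinning. Mfap4, a microfibril-associated protein, differed by -0.87 ± 0.14, a call lost with the mean deposited log2 value. Of 22 neuronal genes, 3 were lower (median -0.19): the RNA-binding protein Elavl4, the synaptic Snap25 and the nuclear marker Rbfox3, at -0.60, -0.54 and -0.45. All 3 lost their calls with the mean deposited log2 value and with the rule applied after thinning. Snap25 and Rbfox3 also lost theirs in thinned cells and without 1 of the tumours. The part of the limit on neuronal genes, set alike for deeper and shallower cells, was not tested. The Notch ligand Dll3 averaged 37.1 ± 16.8 CPM, against 100.3 ± 48.0 CPM (difference -1.18 ± 0.14), and Hey1 did not pass at -0.65 ± 0.18 (adjusted p = 0.054). Hey1 passed without tumour 1 (-0.81), without tumour 2 (-0.44) and in 5 other alternatives.

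**Figure D4:**
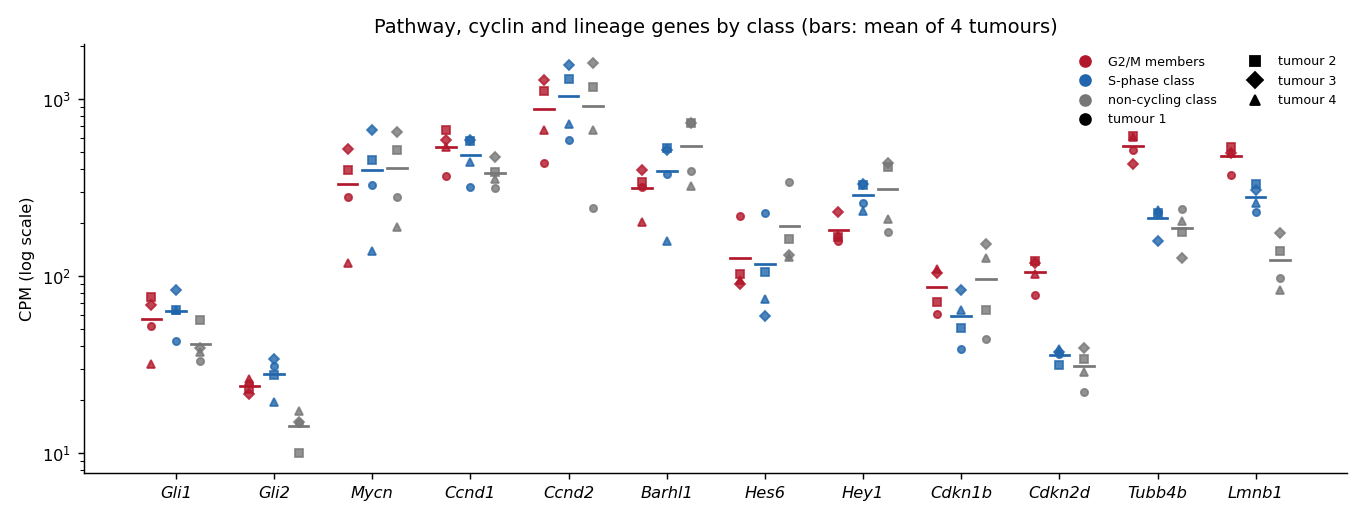
CPM of 12 genes of SHH signalling, the granule lineage, cell cycle control and mitotic structures in G2/M, S-phase and non-cycling progenitor-like cells, 1 point per tumour with the mean as a bar. Cdkn2d, Tubb4b and Lmnb1 are high in G2/M cells of each tumour (Cdkn2d 105 ± 19.4 CPM, against 31.0 ± 7.29 CPM in non-cycling cells), while Gli1 overlaps between classes.

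Ribosomal protein genes were lower by small amounts where they were called, and glycolysis genes were called in both directions. Of 78 ribosomal protein genes, 44 were lower and none higher, with a median of -0.13, and Rpl37 differed by -0.27 ± 0.03. With the mean deposited log2 value 11 were lower. These genes have many near-identical copies. Of 19 glycolysis genes, 5 were lower and 2 higher, and Aldoa, the muscle-type aldolase, stood at 362, 162, 201 and 205 CPM, against 827, 433, 426 and 366 CPM in non-cycling cells (difference -1.10 ± 0.09). Respiratory chain genes were called in 8 of 75 cases, 5 higher and 3 lower. Both shares were below those of all genes tested, 9.78% and 6.96%. None of the 12 mitochondrially encoded genes was called. Of 20 chaperones, 3 were higher, such as Hsp90aa1 (0.43 ± 0.05), and 3 lower, such as Hspa5 of the endoplasmic reticulum (-0.42 ± 0.09), which lost its call with the mean deposited log2 value. Immediate early genes were called in 4 of 15 cases, all lower, among them Junb (-0.84 ± 0.14), which lost its call with the mean deposited log2 value.

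Genes of immune cells were among those with the largest negative differences. C1qb, a complement gene of microglia and macrophages, stood at 20.4, 11.1, 2.31 and 50.6 CPM in G2/M cells, against 199, 63.4, 30.0 and 403 CPM in non-cycling cells (difference -2.26 ± 0.19). Fcer1g (-2.18), Tyrobp (-2.07), C1qc (-2.03), Ctsc (-1.60) and Cd52 (-1.58) were others. The 12 microglia and macrophage markers summed to 494 to 4170 CPM in the non-cycling cells, and 6 of the 8 measured were lower in G2/M cells. Cells with over 0.5% of their UMIs in immune markers were then left out. C1qb differed by -0.02, Tyrobp by -0.27 and Fcer1g by 0.08, and none of these 6 calls held. Those cells were picked by immune markers, microglia and macrophage markers among them, so smaller differences of such genes follow from that choice. Of the 48, 255, 127 and 48 non-cycling cells, 47, 251, 126 and 41 were kept. The same 6 calls were lost with the mean deposited log2 value. In that comparison Barhl1, Btg2, Aldoa and Dll3 kept their calls. Of 10 astrocyte markers, 3 were lower as well. Large negative differences outside these lists were those of A330076H08Rik (-1.80), Gm17322 (-1.40) and Sepp1 (-1.38), a selenium carrier whose call was lost with the mean deposited log2 value.

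Among the largest positive differences after Hist1h2ap were, outside the cell cycle lists, those of 2810417H13Rik (3.32), the mitotic kinase gene Pbk (3.03), the kinetochore scaffold Casc5 (2.92), Sapcd2 (2.77), the phosphatase anchor Cdca2 (2.76), the minus-end motor Kifc1 (2.75), Shcbp1 (2.66) and Hist1h2ao (2.65). Most are genes of mitosis, as the choice of cells fixes. Myod1, the myogenic transcription factor, is no mitotic gene. It stood at 126, 98.7, 111 and 27.2 CPM in G2/M cells, against 51.6, 23.0, 31.5 and 8.58 CPM in non-cycling cells, and was higher in every tumour (difference 1.35 ± 0.15, limma adjusted p = 1.7e-06). The summed muscle markers were 27.2 to 301 CPM in G2/M cells and 8.58 to 593 CPM in non-cycling cells, with Mymk at 0. Among the genes of G1 control, 7 of 13 were higher and none lower, for instance the S-phase activator E2f1 (0.74 ± 0.14), whose call was lost in thinned cells.

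**Figure D5:**
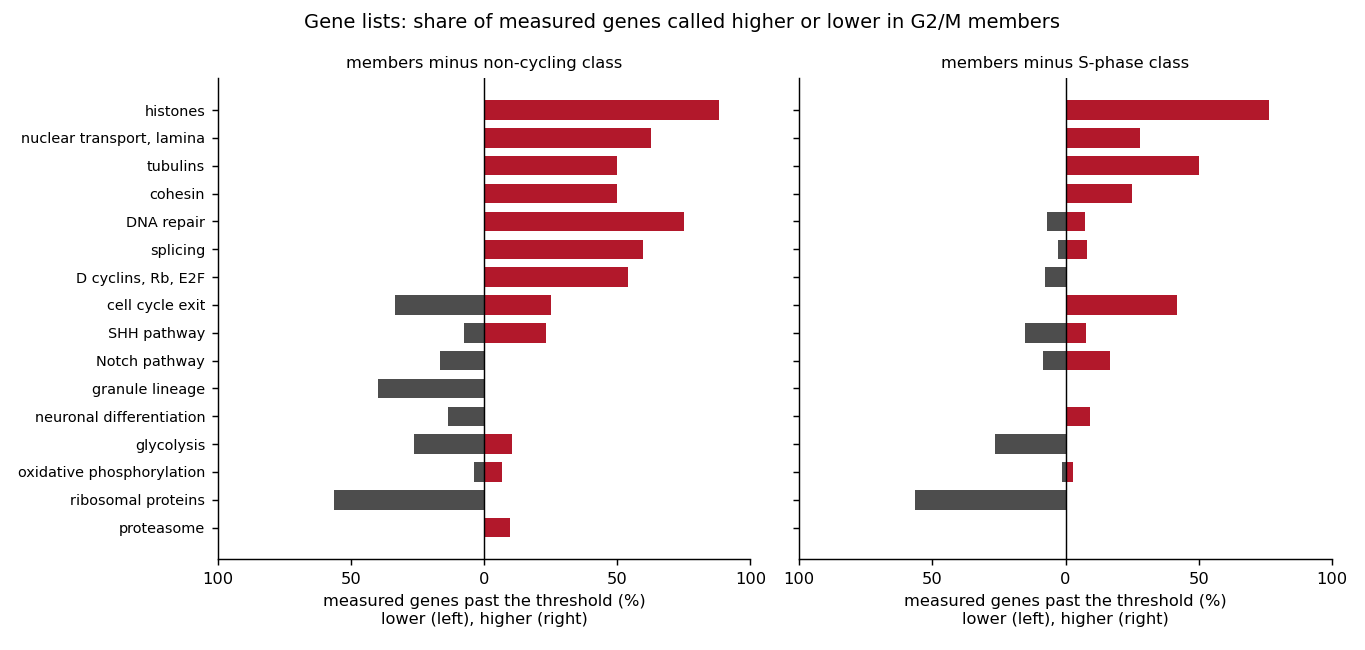
Share of the measured genes of each list that were lower or higher in G2/M cells against non-cycling and against S-phase progenitor-like cells. Histone genes are higher in both (15 and 13 of 17), ribosomal protein genes are lower in both (44 of 78 each), and the granule lineage list has 6 of 15 genes lower against non-cycling and 0 of 15 against S-phase cells, a difference between comparisons that was not tested.

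Set against S-phase progenitor-like cells, in which at least 5 of 10 S-phase genes and at most 2 G2/M genes were detected (47, 251, 111 and 28 cells), the G2/M cells differed in fewer genes. As shares of UMIs, Tubb4b, Lmnb1 and INK4 inhibitor transcripts were higher in them and Hey1 and Ccnd2 were lower. The G2/M cells had more UMIs, so a lower share need not be a lower number per cell. Of 10231 genes tested, 398 were higher (3.89%) and 267 lower (2.61%), with a median of -0.01. With median-of-ratios size factors the counts were 385 and 159, and with the mean deposited log2 value 393 and 58. The lower genes numbered 130 in thinned cells, 134 with the rule applied after thinning, 134, 112 and 141 without tumours 1, 2 and 3, and 499 without tumour 4. These comparisons share the G2/M cells with the ones above, so the values are set side by side and carry no separate support.

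Tubb4b stood at 516, 618, 427 and 608 CPM in G2/M cells, against 231, 226, 158 and 235 CPM in S-phase cells of tumours 1 to 4, with no overlap (difference 1.31 ± 0.06, limma adjusted p = 1e-09). Tuba1c differed by 1.96 ± 0.18 and Tuba1b by 0.45 ± 0.05, and 7 of 14 genes of the tubulin list were higher and none lower (median 0.16). Of 17 histone genes, 13 were higher (median 0.77), with H1f0, a replication-independent linker histone, at 1222 ± 359.8 CPM, against 551 ± 89.3 CPM. H2afx averaged 414 ± 83.4 CPM, against 117 ± 8.08 CPM, and Hist1h1b differed by 1.59 ± 0.18. Of 32 nuclear envelope and transport genes, 9 were higher (median 0.24), among them Lmnb1 (0.74 ± 0.06), Rangap1 (1.47 ± 0.09) and the lamin B receptor Lbr (0.78 ± 0.12). Rad21 (1.10 ± 0.08) and Esco2 (1.39 ± 0.14) were 2 of the 3 cohesin genes that were higher, of 12. Ezh2 differed by only 0.36 ± 0.09, and lost its call without tumour 2 and with the rule applied after thinning.

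Of the cell cycle exit list, 5 of 12 genes were higher in G2/M than in S-phase cells and none lower (median 0.23). Cdkn2d stood at 78.5, 121, 118 and 103 CPM, against 36.2, 31.3, 37.2 and 38.6 CPM in S-phase cells (difference 1.32 ± 0.12), and Cdkn2c differed by 0.78 ± 0.11. Both were higher in every tumour. Cdkn1b stood at 60.8, 71.4, 104 and 109.7 CPM, against 38.9, 50.8, 83.4 and 64.4 CPM, and was higher (difference 0.48 ± 0.11, limma adjusted p = 0.0095), a call lost without tumour 1. Insm1 (0.50 ± 0.09) and Gadd45g (0.57 ± 0.14) were the others. Insm1 lost its call with the rule applied after thinning, and Gadd45g lost its call there, in thinned cells, with the mean deposited log2 value and without tumour 1, 2 or 3. Cdkn1a did not pass, at 0.27 ± 0.14.

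Of the SHH list, 1 of 13 genes was higher and 2 were lower (median -0.15). Spop, an adaptor for Gli turnover, differed by 0.38 ± 0.09, Sfrp1, a secreted Wnt antagonist, by -0.17 ± 0.05, and Mycn by -0.24 ± 0.06. All 3 calls were lost with the rule applied after thinning and without tumour 1, without tumour 2 and without tumour 3, and those of Sfrp1 and Mycn also with the mean deposited log2 value and in thinned cells, among other alternatives. Gli1 and Gli2 did not pass, at -0.15 ± 0.15 and -0.15 ± 0.15, and Gli1 changed sign without tumour 4. Ccnd2 averaged 873 ± 388 CPM in G2/M cells, against 1043 ± 467 CPM in S-phase cells, and was lower (difference -0.26 ± 0.05, limma adjusted p = 0.0022), while Ccnd1 did not pass (0.17 ± 0.05). The Ccnd2 call was lost with the mean deposited log2 value.

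Hey1 stood at 158, 167, 231 and 171 CPM in G2/M cells, against 259, 328, 330.4 and 232 CPM in S-phase cells, and was lower in all 4 tumours (difference -0.63 ± 0.08, limma adjusted p = 6.6e-05). The Notch ligand Jag1 (0.59 ± 0.16) and the receptor Notch1 (0.52 ± 0.14) were higher, with both calls lost in thinned cells, without tumour 1 or tumour 2 and in other alternatives. No gene of the granule lineage was called in either direction, among them Barhl1 (-0.22 ± 0.12) and Hes6 (0.19 ± 0.10). Barhl1 passed without tumour 4, at -0.41, and with the rule applied after thinning. Of the ribosomal protein genes 44 of 78 were lower (median -0.10), a count that was 6 with median-of-ratios size factors and 2 with the mean deposited log2 value, and Rpl38 differed by -0.18 ± 0.03. Of 19 glycolysis genes 5 were lower, such as Aldoa (-0.53 ± 0.10) and Ldha (-0.51 ± 0.06), and 4 of 20 chaperones were, such as Hspa8 (-0.23 ± 0.03). Myod1 was higher than in S-phase cells too, at 126, 98.7, 111 and 27.2 CPM against 69.7, 54.5, 49.6 and 25.7 CPM (difference 0.65 ± 0.14), with the call lost without tumour 1 or tumour 3. In cells with the same G2/M genes but no UMI of Atoh1 it stood at 270, 113, 127 and 39.8 CPM, above the G2/M progenitor-like cells of each tumour. Neither of the 2 muscle markers measured in that comparison was called. The higher level of Myod1 was thus not particular to the Atoh1-detected G2/M cells.

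Outside the cell cycle lists, the largest positive differences from S-phase cells included those of Sapcd2 (2.61), the centromere protector Sgol2 (2.19), Cdca2 (2.13), Hist1h2ap (2.08), Kifc1 (2.05), Casc5 (1.93), C330027C09Rik (1.86), Ccnf, a cyclin that acts as an F-box protein (1.66), and the kinetochore gene Ska1 (1.66). Several are genes of mitosis that the lists do not hold, and their differences follow from the choice of cells. Hist1h2ap lost its call in thinned cells, and Mapk3, named next, with the rule applied after thinning. The largest negative ones were those of Gm17322 (-1.08), the chromatin remodeller Hells (-0.85), Csrp1 (-0.74), the purine salvage enzyme Aprt (-0.74), Fam210b (-0.73), the nucleotidase Nt5c (-0.66), the lipid synthesis factor Srebf1 (-0.66), the creatine synthesis enzyme Gamt (-0.66), Mapk3 (-0.65) and Hey1. Microglia and macrophage markers differed little between these 2 classes, at 22.2 to 693 CPM in G2/M and 24.8 to 689 CPM in S-phase cells, and none of the 8 measured was called.

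Cells with the same G2/M genes but no UMI of Atoh1 (34, 127, 41 and 52 cells) were the nearest class to the Atoh1-detected ones by the number of genes called, which does not show that they are alike. They were shallower, with median UMIs of 13619, 9367, 6669 and 6813, and how many of them held Atoh1 unseen was not tested. Of 10233 genes, 5 were higher in the Atoh1-detected cells (0.0489%) and 17 lower (0.166%), with a median of 0.06. None was called in thinned cells (535 at an unadjusted limma p under 0.05), where tumour 3 had too few cells, nor with the mean deposited log2 value (1296), so each of the calls given here was lost under both. Barhl1 stood at 317, 341, 397 and 203 CPM in Atoh1-detected cells, against 191, 223, 285 and 130.3 CPM in Atoh1-undetected cells of tumours 1 to 4 (difference 0.59 ± 0.09, limma adjusted p = 0.00039). It was higher in each tumour. The others that were higher were Tmem163 (0.81 ± 0.16), the corepressor Cbfa2t3 (0.66 ± 0.10), Srebf1 (0.57 ± 0.10) and the G protein Gnai2 (0.42 ± 0.09).

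Lower in the Atoh1-detected G2/M cells were, among others, the potassium channel gene Kcnk1 (-0.77 ± 0.16), Pbk (-0.52 ± 0.09), the ion pump regulator Fxyd6 (-0.48 ± 0.10), the growth cone protein Gap43 (-0.38 ± 0.08), the histone chaperone Anp32e (-0.35 ± 0.08), Actb (-0.34 ± 0.05), H1f0 (-0.32 ± 0.06), Tuba1b (-0.27 ± 0.05), Hmgn2 (-0.26 ± 0.06), Hmgb1 (-0.23 ± 0.05), Tubb5 (-0.22 ± 0.05) and H2afz (-0.20 ± 0.05). Actb, Tuba1b, Tubb5, Hmgn2, Hmgb1 and H2afz have near-identical copies and are uncertain. Gap43 stood at 174, 319.9, 281 and 247 CPM, against 248, 415, 331 and 334 CPM in Atoh1-undetected cells. All 19 checkpoint and kinetochore genes measured had a mean log2 level below that of Atoh1-undetected cells, with none called. Of these, 7 were lower in every tumour, and 3815 of all 10233 genes tested had a mean below that of Atoh1-undetected cells. Atoh1-undetected cells were shallower but had to meet the same G2/M criterion, so the choice of cells can favour higher mitotic levels there. Each G2/M gene of the rule also had a higher mean there, such as Cdc20 at 467 CPM, against 356 CPM in Atoh1-detected cells. The part of this choice in the lower levels was not tested. Gli1, Mycn and Hey1 did not pass, at 0.30 ± 0.15, 0.35 ± 0.09 and 0.46 ± 0.11, and Mycn and Hey1 passed without tumour 2, at 0.45 and 0.52. Counts were sensitive to single tumours, with 7 to 31 genes higher and 9 to 19 lower when 1 tumour was left out.

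Within the G2/M progenitor-like cells, an order from G2 towards mitosis was drawn from 2 lists. Each cell's UMIs of 14 late mitotic genes (such as Ccnb2, Aurka and Tpx2) were divided by those of these and 14 earlier genes (such as Ccna2, Cdk1 and Top2a), and cells above their tumour's median formed the late-share cells (74, 237, 116 and 33, against 74, 237, 116 and 34 other cells). The median share was 0.357, 0.303, 0.277 and 0.318, and 66, 182, 103 and 23 cells lay within 0.05 of it, so the classes are ranges and not types. Depth differed in no common direction, with median UMIs of 18119, 12167, 11669 and 16810 in late-share and 20955, 11621, 10504 and 11671 in other cells. Ccnb1 averaged 571 ± 175 CPM in late-share cells and 249.9 ± 49.3 CPM in the others, and Atoh1 223 ± 86.9 and 247 ± 83.5 CPM, given without a test.

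Genes higher in late-share cells included some of the spindle, kinetochore and cytokinesis lists, and those lower included some of the replication list. Of 10415 genes outside the lists of the score and the rule, 95 were higher (0.912%) and 52 lower (0.499%), with a median of 0.03. Of 13 spindle genes 7 were higher (median 0.57), of 6 cytokinesis genes 4 were (0.73), of 17 checkpoint and kinetochore genes 6 were (0.33), and of 6 passenger complex genes and shugoshins 4 were (0.50), with none lower. These lists belong to the programme that the share was computed from, so their counts are no independent support. Aspm, which focuses spindle poles, stood at 87.2, 79.1, 93.5 and 90.1 CPM in late-share cells, against 24.9, 29.2, 39.4 and 25.3 CPM in other cells of tumours 1 to 4 (difference 1.31 ± 0.11, limma adjusted p = 0.00038). It was higher in each tumour. Kif20a, a midzone kinesin, averaged 116 ± 35.2 CPM, against 57.1 ± 14.4 CPM, and Birc5 421 ± 34.4 CPM, against 294 ± 44.2 CPM. Ect2, the exchange factor of the cleavage furrow, differed by 0.81 ± 0.11 and Cdc25b, a phosphatase that activates Cdk1, by 0.92 ± 0.17. Birc5 lost its call with the mean deposited log2 value, and Cdc25b did so there and without tumour 1, 2 or 3.

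Of 32 replication genes 13 were lower in late-share cells and none higher (median -0.37). Pcna, the replication clamp, stood at 134, 189, 266 and 141 CPM, against 235, 374, 327 and 244 CPM in other cells (difference -0.69 ± 0.10). The licensing factor Cdt1 differed by -0.76 ± 0.13 and the helicase subunit Mcm2 by -0.65 ± 0.10. The call of Pcna was lost in thinned cells and without tumour 4, that of Cdt1 without tumour 2 or 3 and that of Mcm2 without tumour 2. Tubb4b stood at 663, 806, 548 and 659 CPM in late-share cells, against 385, 422, 313 and 532 CPM in the others, higher in all 4 tumours (difference 0.69 ± 0.08), and H2afx differed by 0.55 ± 0.06, a call lost with the mean deposited log2 value. Tubb4b was thus higher in G2/M than in S-phase cells and higher again among the late-share ones. Ranbp1 (-0.31 ± 0.05), a Ran-binding protein, was lower, a call lost without tumour 2.

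Outside the cell cycle lists, the largest positive differences in late-share cells included those of the cytoskeletal linker Gas2l3 (1.47), the spindle protein Troap (1.31), Tuba1c (1.25), Cep89 (1.21), Miip (1.12), the helicase Pif1 (0.99), Sapcd2 (0.98), Depdc1a (0.93) and Rnf26 (0.90). The largest negative ones included those of Tcf19 (-0.95), Hist1h2ao (-0.77), the folate enzyme Mthfd2 (-0.76), Mroh2a (-0.68), Pcna-ps2 (-0.58), which shares its sequence with Pcna, Hells (-0.58), Eif4ebp1 (-0.57), Hist1h2ae (-0.57) and Atad2 (-0.57). Of these genes, Gas2l3, Troap, Cep89, Miip, Pif1 and Rnf26 kept their calls in each alternative that kept the block by tumour. Mitotic genes among them, such as Troap, belong to the programme that the share was computed from, so their calls are no independent support. Counts moved with single tumours, to 43, 33, 43 and 282 higher and 18, 5, 20 and 200 lower without tumours 1, 2, 3 and 4. They were 40 and 18 in thinned cells, and 54 higher and 51 lower with the mean deposited log2 value.

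The G2/M cells of the 4 tumours differed from each other in a few abundant genes, given as levels because each tumour has 1 value. Tumour 1 stood out for H19, an imprinted noncoding RNA, at 187, 1.27, 0.992 and 1.88 CPM in tumours 1 to 4, and for Cdkn1c, the imprinted inhibitor p57, at 339.7, 41.8, 30.4 and 17.8 CPM. Tumour 2 stood out for Asns, asparagine synthetase, at 83.7, 400.4, 212 and 65.6 CPM, for the stress gene Nupr1 at 7.45, 62.0, 19.8 and 3.75 CPM and for Eif4ebp1, a translation repressor, at 92.3, 285, 145 and 54.4 CPM. Tumour 3 had almost no Fos, at 66.5, 225, 1.65 and 572 CPM, and the highest level of the noncoding Miat (25.5, 14.6, 56.5 and 5.63 CPM). H19 and Fos set 1 tumour apart the most. Xist, the noncoding RNA of the inactive X chromosome and thus of female cells, stood at 1659 and 864 CPM in tumours 1 and 4 and had no UMI in tumours 2 and 3, so sex may differ between the tumours. Its part in the other differences between tumours was not tested.

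In tumour 4 the highest genes relative to the other tumours were immune: S100a9 of neutrophils, at 56.2, 8.74, 2.65 and 334 CPM, and the antigen presentation genes Cd74, at 78.8, 16.8, 0.992 and 328 CPM, and H2-Eb1, at 9.46, 3.66, 0.331 and 145 CPM. Ptprc-detected cells were most numerous in tumour 4, at 1172 of 1893 cells, and the part of their RNA in these levels was not tested. The genes lowest there were Krt10, at 453, 483, 288 and 53.4 CPM, Krt12, at 201, 191, 99.9 and 16.9 CPM, and A830036E02Rik, at 169, 165, 170.3 and 6.56 CPM. Gpr153 (119, 11.1, 119 and 82.5 CPM) and Gm5611 (109.8, 7.15, 104 and 46.9 CPM) were lowest in tumour 2. Rps3a3, Gm10036, Dynlt1f and Tpm3-rs7 also differed by tumour, but they have near-identical copies and their counts are uncertain: Rps3a3 stood at 1655, 39.4, 68.1 and 1895 CPM and Gm10036 at 21.2, 409, 539 and 414 CPM.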

How the data were processed

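Single-cell RNA was measured in 4 libraries. The labels number them as replicates 1 to 4 and do not say separately whether the tumours came from different mice, so p-values measure the spread between these samples. Cell Ranger, Seurat and the build mm10 are named in the submitters' processing notes, without versions. The values the authors deposited are on a log2 scale, log2 of the UMI count over a size factor, plus 1, as read from the values. Dividing out the step of each cell gave UMI counts that were whole within 1e-06 at every deposited value. The treatment of reads shared by near-identical genes is not given in the sources used here. Of the 13622 to 33219 genes listed per file, 13149 were in every file. Gene positions came from GENCODE for GRCm38, the assembly behind mm10, and sequences from RefSeq. No doublet caller was run, and no cells were removed.

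The members, classes and gene lists were chosen with earlier results of these data known. UMIs were summed per tumour and class, with at least 10 cells, and scaled to CPM. A gene entered the test if every file listed it and 5% of the cells in 1 of the classes had a UMI of it. The test was limma 3.58.1 (R 4.3.3, statmod 1.5.0; variance trend, robust moderation) on log2(CPM + 10), with tumour as a block, since both classes of a pair come from 1 tumour. The Benjamini-Hochberg adjustment ran over all genes tested, with a threshold of 0.05, and adjusted p-values are limma's throughout. Genes of the rules were left out. The text names the 10 largest differences in each direction that passed, had 1 sign in every tumour, reached 50 CPM in a class and were in no rule, score or cell cycle list. Some genes that this rule names are not reported here. The text adds genes of each list with the largest differences, a short set of SHH and cell cycle genes, and the most abundant genes of cell cycle lists. The genes named for the order within G2/M cells (Aspm, Kif20a, Birc5, Ect2, Cdc25b, Pcna, Cdt1 and Mcm2) were chosen after their values were seen, and so were Myod1 and Xist. Motifs were searched on both strands of the 250 bases before each RefSeq start. Wilson intervals cover counting error only. The alternatives were the mean deposited log2 value, a pseudocount of 1, no detection filter, cells thinned to 1 number of UMIs per comparison (6000 against non-cycling, 7600 against S-phase and 8000 against Atoh1-undetected cells, and 8800 among the G2/M cells), no block, the deepest cells (above the 95th percentile) left out, median-of-ratios size factors, each tumour left out, thresholds of 5 and 8 G2/M genes (not among the G2/M cells), and the rule applied after thinning (against non-cycling and S-phase cells). Leaving out cells with over 0.5% of UMIs in immune markers was added after seeing the data. The test was checked on simulated data. Python 3.11.15, numpy 2.4.6, scipy 1.17.1 and pandas 2.3.3 were used.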

Additional observations from a re-analysis of the deposited data

Results flagged for a closer look

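Of 134 measures over the 4 tumours (shares and levels in G2/M progenitor-like cells), 3 had 1 tumour whose gap to its neighbour, as a part of the whole range, was above Dixon's 95% critical value, which chance exceeds in about 1 of 20 groups. Fewer measures were flagged than that rate gives. The share of G2/M progenitor-like cells among all cells was 3.54% in tumour 4, against 18.3% to 18.9% in the others (0.963 of the range). In tumour 4, 1172 of 1893 cells were Ptprc-detected. Over cells that met the Atoh1, Ptprc and neuronal criteria, the share was 27.5% in tumour 4, against 30.1% to 41.6% in the others. With cells thinned to 6000 UMIs before the rule, the share of the cells deep enough was 10.4%, 14.7%, 19.4% and 3.70% in tumours 1 to 4. Hist1h2ap was at 2916 CPM in tumour 1, against 917 to 1099.7 CPM in the others (0.909 of the range). Hes6 was at 217 CPM in tumour 1 (0.893 of the range). Near-identical copies make the Hist1h2ap count uncertain.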

How the results depend on the processing

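Counts are given as higher and lower in G2/M cells. Against non-cycling cells (999 and 711), the lower count was 112 with the mean deposited log2 value and 327 in thinned cells, and leaving out single tumours gave 759 to 931 higher and 406 to 719 lower. Against S-phase cells (398 and 267), the lower count was 58 with the mean deposited log2 value, 130 in thinned cells and 159 with median-of-ratios size factors, and the rule applied after thinning gave 257 and 134. Leaving out single tumours gave 278 to 550 higher and 112 to 499 lower. Against Atoh1-undetected cells (5 and 17), the counts were 0 and 0 with the mean deposited log2 value and in thinned cells, 3 and 4 with a pseudocount of 1, 3 and 5 with no filter, 3 and 4 without the deepest cells, 9 and 32 with median-of-ratios size factors, 9 higher with a threshold of 5 genes and 2 and 2 with 8. Leaving out single tumours gave 7 to 31 higher and 9 to 19 lower. Between late-share and other cells (95 and 52), they were 54 higher with the mean deposited log2 value, 32 lower with a pseudocount of 1, 31 lower with no filter and 40 and 18 in thinned cells, and leaving out single tumours gave 33 to 282 higher and 5 to 200 lower. Without the block by tumour (the replicate block), the pairing was lost and counts were 386 and 68, 136 and 2, 0 and 0 (241 genes at an unadjusted limma p under 0.05), and 2 and 0 in the 4 comparisons in this order. The rule applied after thinning chose 83, 275, 140 and 43 cells against non-cycling cells and 118, 326, 135 and 49 against S-phase cells. The cause of these changes was not tested. With the mean deposited log2 value 1009 of the 1710 calls against non-cycling cells were kept.

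Reversed values were found for 5 genes. Against non-cycling cells, Cdkn1a was at 0.0485 with the mean deposited log2 value, 0.0324 in thinned cells and 0.0755 without immune marker-rich cells, and between -0.22 and 0.31 when single tumours were left out. Cdkn1b was at 0.14 with the mean deposited log2 value, 0.0154 with a threshold of 8 genes and 0.20 with the rule applied after thinning, and between -0.18 and 0.11 when single tumours were left out. Ccnd2 was at -0.13 with the rule applied after thinning and between -0.13 and 0.25 when single tumours were left out, and Fcer1g was at 0.0759 without immune marker-rich cells. Against S-phase cells, Gli1 was at 0.0475 with the mean deposited log2 value and between -0.29 and 0.0707 when single tumours were left out. Of 942 repeats over 63 named genes against non-cycling cells, 834 kept direction and side of the threshold and 86 lost the call. The numbers were 723 and 82 of 810 against S-phase cells, 158 and 120 of 280 against Atoh1-undetected cells, and 277 and 95 of 372 among the G2/M cells. Depth limits what a rule on detected genes can separate: G2/M cells were deeper than S-phase, non-cycling and Atoh1-undetected cells, and Atoh1 may be missed in shallow cells.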
